A study of Mus musculus with 6 samples.

Results

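Retinal ganglion cells carry the output of the eye along the optic nerve. They come in many types that send different features of the visual scene to the brain. A type is recognised by genes enriched in it, although some of these are shared by several types. Listed here are 10 such markers, out of 55335 genes counted: Opn4, Adcyap1 and Tbx20 for the melanopsin cells, which sense light themselves and set the body clock and the pupil; Spp1 for the large alpha cells; Cartpt, Mmp17, Fstl4 and Cdh6 for direction-selective cells, which answer to motion one way and not the other; Foxp2 for the F type and Jam2 for the J type. The members were given by name and matched by Ensembl identifier and symbol, and all 10 passed the filter on low counts. They were compared between SOHU and naive mice, to see how far the markers of each type differed.

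SOHU is silicone oil-induced ocular hypertension under-detected, a mouse model of glaucoma in which oil placed in the front chamber of the eye raises its pressure. The SOHU group holds 3 libraries from retinas taken 1 week after the oil, and the naive group holds 3 libraries whose condition is given as naive, although the labels repeat the oil protocol for every sample. All 6 came from wild type C57BL/6 mice aged 10 weeks, and in all of them RNA was recovered from homogenised retina on magnetic beads with an antibody to the HA tag. The labels name retinal ganglion cells as the cell type but not the protein that carries the tag, and nothing in them tells if a group's libraries are separate animals or pools. The p-values therefore rest on the spread among these libraries alone, and that spread may be technical. The pull-down was not pure. A list of 20 pan-ganglion cell markers stands for ganglion cells at large. Not every gene in it is in every type, and some are in other neurons too. These 20 took 0.238 to 0.345% of the reads in the SOHU libraries and 0.489 to 0.776% in the naive libraries. By comparison, 15 Müller glia and astrocyte markers took 2.77 to 4.99% in SOHU and 1.36 to 1.89% in naive libraries. For 10 rod genes the share was 0.425 to 0.672% in SOHU and 0.464 to 0.559% in naive libraries. The libraries held 21691354 to 26824919 counted reads.

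Opn4 encodes melanopsin, the photopigment that signals through Gq proteins, phospholipase C and TRPC channels. Adcyap1 encodes PACAP, a neuropeptide that melanopsin cells release in the brain, and Tbx20 a T-box transcription factor of the same cells. Spp1 encodes osteopontin, a secreted phosphoprotein that macrophages also make. Cartpt encodes the precursor of the CART peptides, Mmp17 a matrix metalloproteinase held to the membrane, Fstl4 a secreted follistatin-like protein found in cells that prefer upward motion, and Cdh6 a cadherin of cells that prefer vertical motion. Foxp2 encodes a forkhead transcription factor, and Jam2 a junctional adhesion molecule that endothelium also carries.

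The 6 members that passed the test moved in the same direction, and 5 of them had a promoter in the RefSeq table for GRCm38.p6, so the start regions of these 5 are shown for comparison. Over the 250 bases before the RefSeq start, both strands were searched for the cAMP response element TGACGTCA, the T-box site AGGTGTGA and the POU site TAATTAAT, which occur in 1.55, 1.12 and 0.788% of 32851 promoters. Of the 7 members with a promoter row, 2 held the cAMP response element, Fstl4 and Cartpt, and none held either of the other motifs as spelled. The core TGACG, which overlaps the full element, was in 4 of the 7, against 17.8% of all promoters. Capitals mark these letters. The first pair of sequences are the elements with their surroundings, and the others are the 100 bases just before the start.
Fstl4, chr11:52764618-52764647, plus strand: ggcccggagggTGACGTCAcgggctccggt
Cartpt, chr13:99900777-99900806, minus strand: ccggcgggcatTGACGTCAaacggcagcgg
Adcyap1, chr17:93198917-93199016, plus strand: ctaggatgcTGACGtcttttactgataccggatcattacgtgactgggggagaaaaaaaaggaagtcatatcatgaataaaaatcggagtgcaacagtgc
Spp1, chr5:104435011-104435110, plus strand: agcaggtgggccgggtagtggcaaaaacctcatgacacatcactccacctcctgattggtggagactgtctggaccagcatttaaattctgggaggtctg
Cdh6, chr15:13173676-13173775, minus strand: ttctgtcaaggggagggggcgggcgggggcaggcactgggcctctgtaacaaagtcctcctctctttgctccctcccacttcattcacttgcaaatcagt
These are letters of the reference sequence and not measured sites. In the files' own annotation the first exon of Fstl4 begins inside the window shown, and an annotated exon of Cartpt spans the window shown for it.

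Levels are given as CPM, read counts scaled to a common library size with TMM factors. Of the 10 members, 6 fell and 0 rose at an edgeR adjusted p under 0.05 (0 rose in limma-voom and DESeq2 too), in a comparison where 13.9% of all 17687 genes tested were called, 5.93% lower and 8.02% higher. These directions hold for libraries scaled over all genes; scaled to pan-ganglion cell markers, Cartpt and Cdh6 turned to the higher side and none of the 6 passed. The falls were 4 of 4 direction-selective markers, the alpha marker Spp1 and 1 of 3 melanopsin markers, Adcyap1. Those 6 fell 1.92- to 2.49-fold. The median log2 fold change was -0.97 over the members, -1.09 over the pan-ganglion cell markers and 0.01 over all genes. In a bulk sample such as this, fewer cells of a type and less RNA per cell cannot be told apart. Nor can a larger share of RNA from other cells in the pull-down be told apart from these. The SOHU and naive libraries did not overlap in 8 members, all of them lower in SOHU. Of all genes tested 39% did not overlap, and 19.7% were lower without overlap. The calls needed particular libraries: 0 members passed in edgeR without naive replicate 1, naive replicate 3 or SOHU replicate 2, with 7, 8 and 8 members at an unadjusted p under 0.05 (0, 0 and 0 called by limma-voom, 5, 7 and 6 by DESeq2). Without naive replicate 2, edgeR called 2, and without SOHU replicate 1 it called 4.

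**Figure D1:**
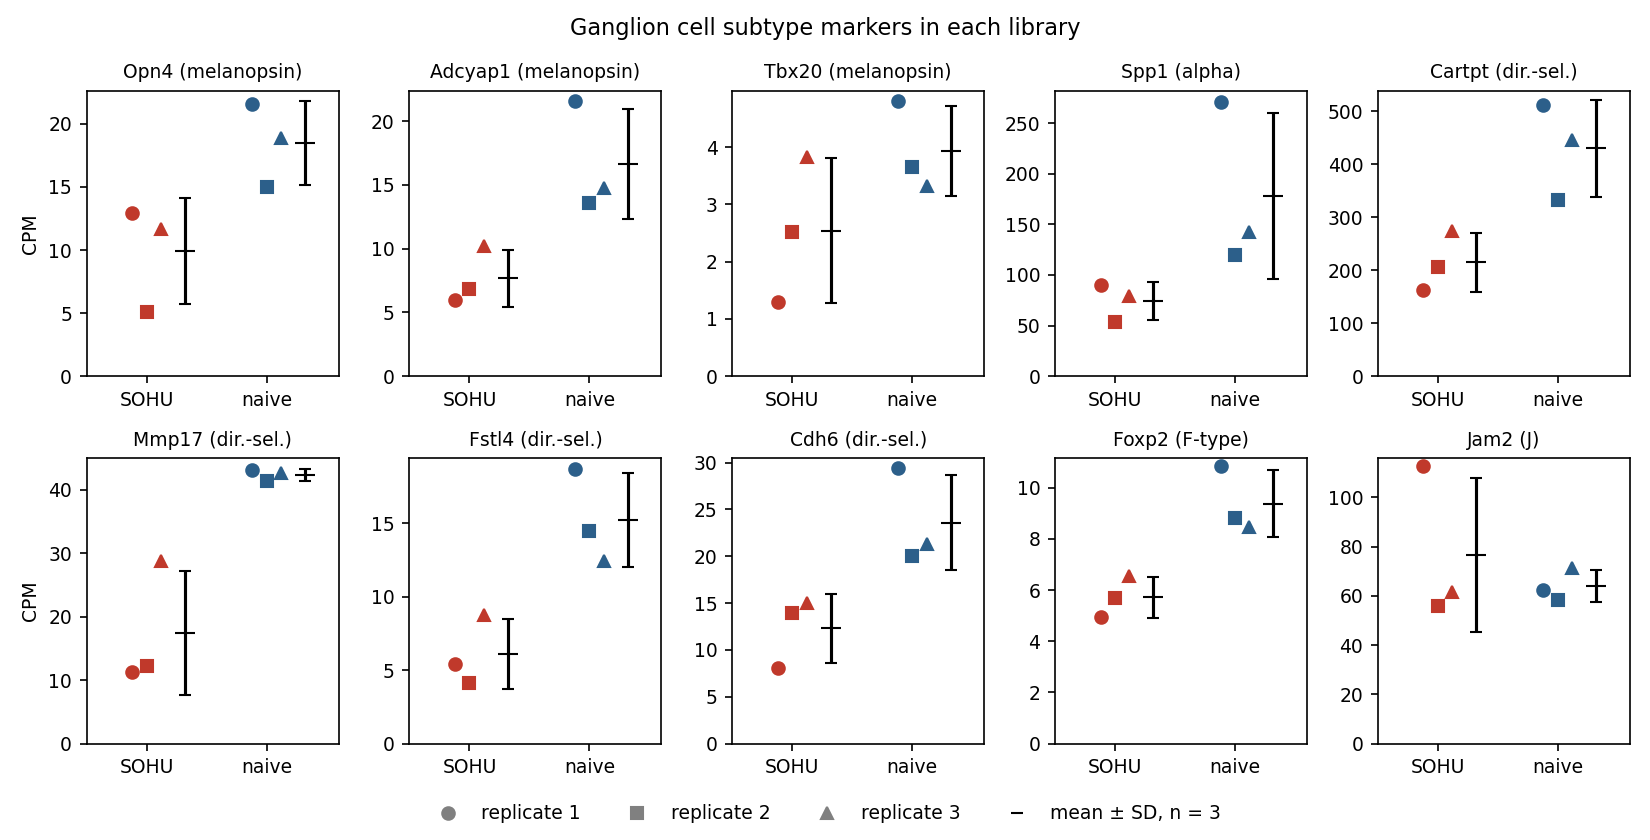
Level of each marker in CPM (read counts scaled to a common library size) in the 3 SOHU libraries (red) and the 3 naive libraries (blue), with the mean and SD of each group as black bars. Only Tbx20 and Jam2 overlap between the groups, and naive replicate 1 is the highest library for 9 of the 10 genes, Jam2 being led by SOHU replicate 1.

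All 4 direction-selective markers among the members passed the test. Col25a1, a gene of a wider list given below that is also described in direction-selective cells, did not. It had 2.96 CPM on average in SOHU and 3.44 CPM in naive, with overlap (log2 fold change -0.22, edgeR adjusted p = 0.614). Cartpt (ENSMUSG00000021647.7, mm10 chromosome 13, 99898489 to 99901091, minus strand) had 163, 206 and 274 CPM in the SOHU libraries and 512, 332 and 446 CPM in the naive libraries. The highest SOHU library thus lay below the lowest naive library, and Cartpt averaged 215 ± 56.0 CPM in SOHU and 430.1 ± 91.1 CPM in naive (SD, n = 3 each). Its log2 fold change was -1.003 (SE 0.22, edgeR adjusted p = 0.0199).

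Mmp17 (ENSMUSG00000029436.9, chromosome 5, 129584169 to 129611099, plus strand) had 11.3, 12.3 and 28.7 CPM in SOHU and 43.1, 41.3 and 42.5 CPM in naive. The naive libraries were nearly equal, with an SD of 0.903 CPM, against 9.81 CPM in SOHU, where replicate 3 stood well above the other libraries. Its log2 fold change was -1.28 (SE 0.32, edgeR adjusted p = 0.0299). With a library left out Mmp17 passed only without SOHU replicate 3 (edgeR adjusted p = 0.00131). It also missed the threshold with no filter on low counts (edgeR adjusted p = 0.0771).

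Fstl4 (ENSMUSG00000036264.9, chromosome 11, 52764634 to 53188538, plus strand) fell furthest of the 10. It had 5.40, 4.13 and 8.78 CPM in SOHU and 18.7, 14.5 and 12.4 CPM in naive, with no overlap and a log2 fold change of -1.31 (SE 0.29, edgeR adjusted p = 0.0216). Of all genes tested, 0.95% fell further than Fstl4. Cdh6 (ENSMUSG00000039385.5, chromosome 15, 13028701 to 13173675, minus strand) had 8.10, 13.9 and 14.96 CPM in SOHU and 29.4, 20.02 and 21.3 CPM in naive. The groups were apart, SOHU replicate 1 was the lowest, and the log2 fold change was -0.94 (SE 0.25, edgeR adjusted p = 0.0395). Cdh6 has also been described in starburst amacrine cells, the interneurons that direct these ganglion cells. Their acetylcholine genes Chat and Slc18a3 had 2.20, 5.74 and 10.5 CPM (Chat) and 6.65, 9.15 and 17.1 CPM (Slc18a3) in SOHU, against 15.5, 18.9 and 15.9 CPM and 20.2, 25.5 and 20.5 CPM in naive. Neither passed (edgeR adjusted p = 0.0522 for Chat and 0.0581 for Slc18a3). Megf10 and Sox2 of the amacrine list, which Müller glia also express, rose (log2 fold change 1.34 and 0.98). The part of starburst cells in the Cdh6 value was not tested.

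The alpha marker Spp1 (ENSMUSG00000029304.14, chromosome 5, 104435118 to 104441050, plus strand) had 90.1, 53.8 and 79.1 CPM in SOHU, against 271, 120 and 142 CPM in naive. Naive replicate 1 was far above the other naive libraries, and the naive SD was wide (178 ± 81.8 CPM, against 74.3 ± 18.6 in SOHU, SD, n = 3 each). The log2 fold change was -1.26 (SE 0.30, edgeR adjusted p = 0.0285). With a library left out Spp1 passed only without naive replicate 2 (adjusted p = 0.0398); without naive replicate 1 its log2 fold change was -0.83 (adjusted p = 0.0957). It also missed the threshold with no filter on low counts (adjusted p = 0.169). The list of leukocyte genes took 0.0121 to 0.0259% of the reads in SOHU and 0.00108 to 0.0216% in naive, and 5 of its 13 genes tested rose. Lyz2 had 46.5, 34.5 and 18.2 CPM in SOHU and 1.96, 7.17 and 5.84 CPM in naive, Tyrobp 12.4, 6.01 and 4.51 CPM in SOHU and 0.116, 1.504 and 1.15 CPM in naive. Cd74 had 2.04, 171 and 71.7 CPM in SOHU and 2.93, 182 and 127 CPM in naive, above Spp1 in replicate 2 of both groups. The part of leukocytes in the Spp1 value was not tested. Kcng4, a potassium channel subunit gene of alpha cells from a wider list given below, fell too (14.5 ± 1.63 CPM in SOHU and 25.9 ± 5.03 CPM in naive, SD, n = 3 each). Its log2 fold change was -0.84 (SE 0.19, edgeR adjusted p = 0.0224). Other genes of that list described in alpha cells did not pass. Their log2 fold changes were -0.82 for Fes, -0.77 for Il1rapl2 and -0.08 for Tpbg (edgeR adjusted p = 0.0915, 0.206 and 0.755).

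Of the melanopsin markers, Adcyap1 fell. It had 5.98, 6.82 and 10.2 CPM in SOHU and 21.6, 13.6 and 14.8 CPM in naive (ENSMUSG00000024256.7, chromosome 17, 93199017 to 93206537, plus strand). The groups did not overlap, and the log2 fold change was -1.12 (SE 0.26, edgeR adjusted p = 0.0252). Opn4 itself (ENSMUSG00000021799.9, chromosome 14, 34590618 to 34600142, minus strand) had 13.0, 5.11 and 11.7 CPM in SOHU and 21.6, 15 and 18.9 CPM in naive. All SOHU libraries were below all naive ones, SOHU replicate 2 was well below the other SOHU libraries, and the change did not pass (log2 fold change -0.90, SE 0.31, edgeR adjusted p = 0.0839). Opn4 passed in DESeq2 (adjusted p = 0.0253), with no filter (0.0178) and with the replicate number as a block (0.0358).

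Tbx20 (ENSMUSG00000031965.15, chromosome 9, 24718138 to 24774303, minus strand) was the least abundant member. It had 31, 56 and 94 reads in SOHU, against 125, 85 and 75 in naive, and the counting error alone is wide at this depth (31 reads have an exact 95% Poisson interval of 21.1 to 44.0). SOHU replicate 3, at 3.82 CPM, lay within the naive range of 3.32 to 4.81 CPM. Its log2 fold change was -0.63 with a 95% interval of -1.48 to 0.22 (edgeR adjusted p = 0.293). A fall of the size seen in Adcyap1 lies within that interval.

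The F-type marker Foxp2 (ENSMUSG00000029563.16, chromosome 6, 14901349 to 15441977, plus strand) had 4.94, 5.70 and 6.54 CPM in SOHU and 10.9, 8.81 and 8.45 CPM in naive. The groups did not overlap, and the change lay just above the threshold (log2 fold change -0.71, SE 0.21, edgeR adjusted p = 0.0527). It passed in DESeq2 (adjusted p = 0.0171), with no filter (0.0433) and with a filter of 1 CPM in 3 libraries (0.0491), and did not in limma-voom (0.0529).

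Jam2 (ENSMUSG00000053062.16, chromosome 16, 84774123 to 84825928, plus strand) was the member with a log2 fold change above 0. It had 113, 55.9 and 61.4 CPM in SOHU and 62.6, 58.3 and 71.3 CPM in naive. SOHU replicate 1 was far above all other libraries, SOHU replicate 2 was the lowest of the 6, and SOHU replicate 3 lay within the naive range. The log2 fold change was 0.26 with a 95% interval of -0.29 to 0.81 (edgeR adjusted p = 0.51), and -0.13 without SOHU replicate 1. The same library had the highest level of the Müller glia and astrocyte list (mean log2 CPM 10.0, against 9.45 and 9.17 in the other SOHU libraries and 8.29 to 8.65 in naive) and of the endothelium and pericyte list (3.12, against 2.70 and 2.48 in the other SOHU libraries and 2.14 to 2.41 in naive). The endothelium and pericyte list took 0.0784 to 0.101% of the reads in SOHU and 0.0359 to 0.0423% in naive. Most of these reads were of Kdr and Flt1, and the genes of the list ran both ways. Esam was lower in SOHU without overlap but did not pass (log2 fold change -0.71, edgeR adjusted p = 0.0589). Kdr had 855, 705 and 562 CPM in SOHU and 277, 301 and 269.5 CPM in naive, and Flt1 129 to 150 CPM in SOHU and 61.0 to 70.2 CPM in naive. Cldn5 had 103, 59 and 11 reads in SOHU and 24, 28 and 19 in naive. Pecam1, Tie1 and Cdh5 were below the filter on low counts, with at most 9 reads a library in SOHU and 13 in naive. The part of glial and endothelial RNA in the Jam2 value was not tested.

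**Figure D2:**
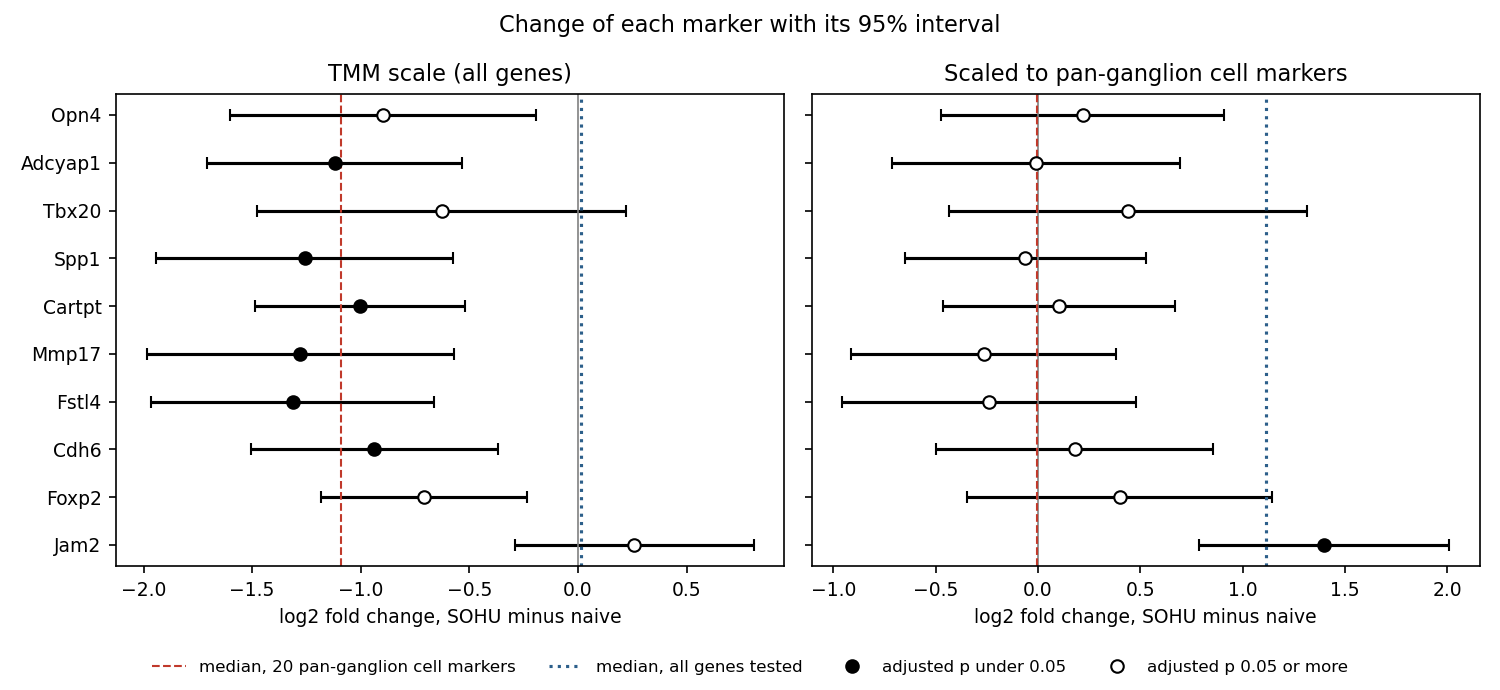
Log2 fold change of each marker, SOHU minus naive, with its 95% interval, on the TMM scale (left) and with libraries scaled to 20 pan-ganglion cell markers (right); filled points passed at an adjusted p under 0.05. On the left 9 markers are below 0 and 6 are filled, and on the right Jam2 alone is filled, at 1.40, with the median of all genes at 1.11.

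The pan-ganglion cell markers fell too, so each subtype marker was also set against them. The pan-ganglion cell list, which shares no gene with the members, had 19 of 20 genes lower and 0 higher, for example Isl2 (log2 fold change -1.33), Nefh (-1.36), Nefm (-1.44) and Nefl (-1.23), with Pou4f2 the gene that did not pass. With libraries scaled to these 20 genes, the median over every gene tested moved to 1.11 (log2), and 71.3% of all genes tested were called higher and 0.0113% lower. On that scale 1 of the 10 members was called, Jam2, and the others lay between -0.27 and 0.44. Adcyap1 had -0.01 (95% interval -0.71 to 0.70) relative to the pan-ganglion cell markers, Spp1 -0.06 (-0.65 to 0.53) and Cartpt 0.10 (-0.46 to 0.67). The direction thus flipped to the higher side on this scale for Opn4 (0.22), Tbx20 (0.44), Cartpt, Cdh6 (0.18) and Foxp2 (0.40), none of which passed. Intervals of this width hold sizeable changes in either direction, so an equal fall of subtype and pan-ganglion cell markers is not shown.

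Mmp17 and Fstl4 were the lowest members on this scale. Mmp17 had a log2 fold change of -0.27 (95% interval -0.91 to 0.38, adjusted p = 0.46) and Fstl4 -0.24 (-0.96 to 0.48, adjusted p = 0.552). Jam2 had 1.40 (SE 0.31, 95% interval 0.78 to 2.01, edgeR adjusted p = 4.97e-05), where most genes of the table were called as well, and 0.89 without SOHU replicate 1 (adjusted p = 0.0197).

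Library by library, Adcyap1 kept closest to the pan-ganglion cell markers. Its log2 CPM minus their mean log2 CPM was -3.42, -3.24 and -3.13 in SOHU and -3.22, -3.23 and -3.31 in naive. Opn4 was more scattered in SOHU, at -2.31, -3.65 and -2.93, against -3.22, -3.09 and -2.96 in naive. The SOHU libraries therefore lay on either side of the naive ones for Opn4. Foxp2 was above its naive levels in all SOHU libraries, with -3.69, -3.50 and -3.76 against -4.21, -3.85 and -4.11 in naive, a difference of 0.41 (exact two-sided permutation p = 0.1, the smallest that 3 libraries against 3 allow). On this scale 78.4% of all genes tested did not overlap and 78.3% were higher in SOHU without overlap, so nothing is read from the separation of Foxp2 or Jam2.

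**Figure D3:**
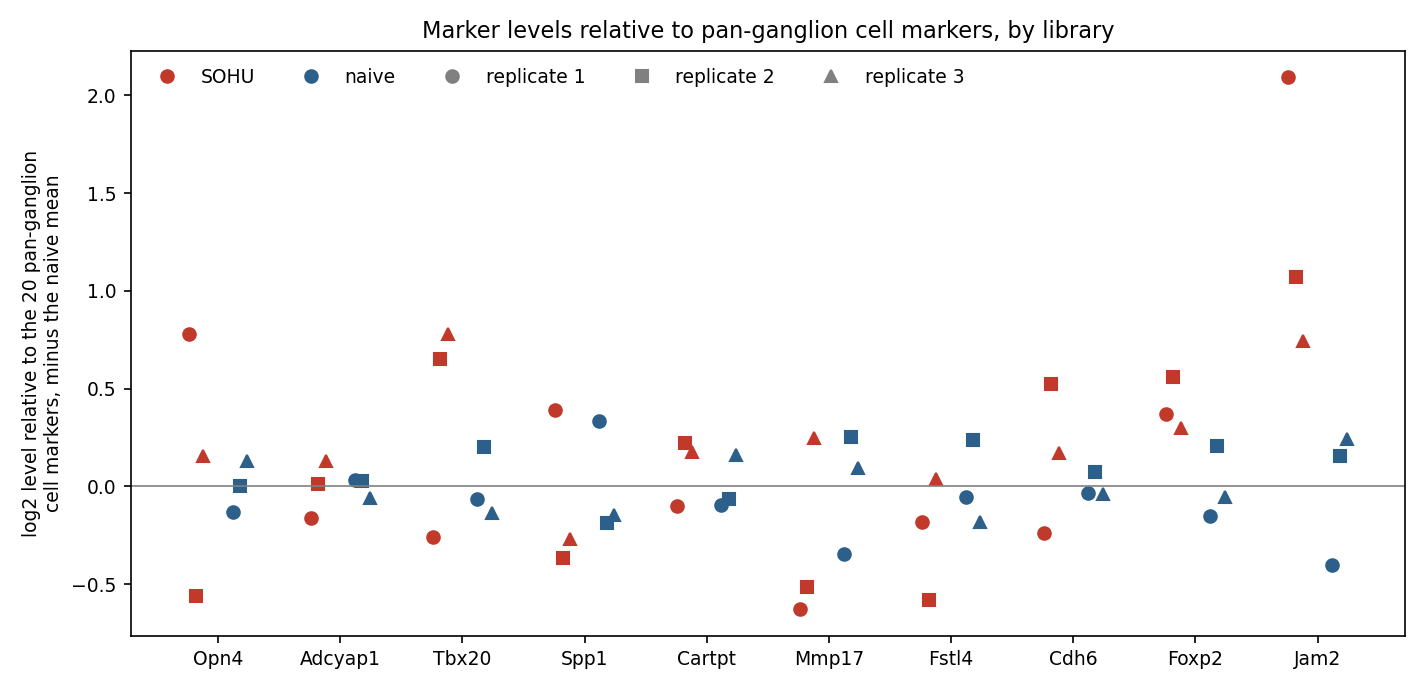
Log2 CPM of each marker minus the mean log2 CPM of the 20 pan-ganglion cell markers in the same library, shown as the difference from the naive mean of that marker, for SOHU (red) and naive (blue) replicates. The groups are apart for Foxp2 and Jam2, both higher in SOHU as were 78.3% of all genes tested, and overlap for the other 8 markers.

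Members were also set against each other, as log2 ratios of a pair within each library. Of 45 pairs, 10 did not overlap between SOHU and naive, 8 of them among the 9 pairs with Jam2 and 2 among the 36 without it. The pairs without Jam2 were Tbx20 over Mmp17 (-2.73 ± 0.42 in SOHU and -3.42 ± 0.26 in naive, SD, n = 3 each) and Fstl4 over Foxp2 (0.03 ± 0.45 in SOHU and 0.68 ± 0.12 in naive, SD, n = 3 each). The exact two-sided permutation test cannot call any pair with 3 libraries a group, since its smallest p is 0.1, or 0.45 after Benjamini-Hochberg adjustment over the 45 pairs. It therefore does not tell whether the markers of different types fell by different amounts.

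Compared per kilobase of exon, the order of the levels was nearly the same in both groups. Cartpt led with 168 ± 43.9 CPM per kilobase in SOHU and 337 ± 71.4 in naive (SD, n = 3 each). Spp1 followed with 45.1 ± 11.3 in SOHU and 108 ± 49.7 in naive, then Jam2 with 12.7 ± 5.18 in SOHU and 10.6 ± 1.09 in naive. Cartpt, Spp1 and Jam2 did not overlap with the next gene in either group. Mmp17, Opn4, Adcyap1, Fstl4 and Cdh6 came next at 1.37 to 3.35 CPM per kilobase in SOHU and 2.61 to 6.39 in naive, each overlapping its neighbour among these 5. Foxp2 and Tbx20 were lowest, at 0.35 and 0.212 CPM per kilobase in SOHU and 0.573 and 0.327 in naive. Opn4 and Mmp17 changed places, and their ranges overlapped in both groups.

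Genes with the most similar profile were sought for the 6 markers that fell, as the smallest root mean square difference of centred log2 CPM over the 6 libraries among 10507 genes. For Cartpt these were Nrn1 (0.045), Pou4f3 (0.064) and Ppfia4 (0.079), beside a median of 0.591 over all genes compared. For Adcyap1 they included Rusc1 (0.053) and the glutamate transporter gene Slc17a6 (0.070), with a median of 0.645. Spp1 lay nearest to the nicotinic receptor gene Chrna3 (0.1001), Ctxn3 (0.130) and Sncg (0.182). Cdh6 lay nearest to Elavl2 (0.033), Rgs17 (0.052) and Dpf1 (0.061). Mmp17 (Kcnip1, Fam163a and Csgalnact1, 0.134 to 0.145) and Fstl4 (Coch, Phyhip and Mgat5b, 0.117 to 0.126) had their nearest neighbours farther off than Cartpt, Adcyap1 and Cdh6 did. Of the neighbours named, Nrn1, Slc17a6 and Sncg are in the pan-ganglion cell list.

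A wider list holds 30 other markers of ganglion cell types. Of these 10 fell and 1 rose at an edgeR adjusted p under 0.05, with a median log2 fold change of -0.57. Calb2, which encodes the calcium buffer calretinin, had 877 ± 177 CPM in SOHU and 2157 ± 391 CPM in naive (SD, n = 3 each; log2 fold change -1.30, SE 0.20, edgeR adjusted p = 0.00993). The transcription factor gene Pou4f3 fell by 1.08 on the log2 scale (adjusted p = 0.0244). Eomes, which encodes a T-box factor needed for melanopsin cells to form, fell by 0.74 (9.51, 8.92 and 10.7 CPM in SOHU, against 19.6, 14.3 and 14.9 CPM in naive; adjusted p = 0.0342). Nmb of the same list was higher in SOHU without overlap but did not pass (log2 fold change 0.65, edgeR adjusted p = 0.301). It had 1.12, 1.39 and 1.10 CPM in SOHU and 0.77, 0.945 and 0.575 CPM in naive. Calca, which encodes a calcitonin-family peptide, was the gene that rose past the threshold (log2 fold change 1.34, edgeR adjusted p = 0.0257). Calca had 34.6, 16.1 and 15.9 CPM in SOHU and 10.8, 7.61 and 7.96 CPM in naive.

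Of 12 genes of the melanopsin light response, 2 fell and 1 rose, with a median log2 fold change of -0.42, a share of rises close to the 8.02% of all genes tested. Here and in the lists that follow, counts stand beside that share and the 5.93% of all genes that fell. The channel gene Trpc7 had 3.41, 3.27 and 5.32 CPM in SOHU and 7.70, 8.25 and 8.36 CPM in naive, without overlap (log2 fold change -1.01, SE 0.25, edgeR adjusted p = 0.0283), and Rgs16, which encodes a brake on G proteins, fell by 0.65. Gna14, a Gq-family subunit gene, rose by 1.61 (111, 70.8 and 48.0 CPM in SOHU, against 15.6, 38.1 and 21.3 CPM in naive; adjusted p = 0.0283). Gna14 was highest in SOHU replicate 1, as were the glial lists, and the part of other cells in it was not tested.

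For the secreted members, 13 of 15 genes of their receptors and processing enzymes were tested, of which 3 rose and 2 fell (median -0.12). The prohormone convertase genes Pcsk1 and Pcsk2, whose enzymes cut peptide precursors such as those of CART and PACAP, fell 2.79- and 1.83-fold (log2 fold change -1.48 and -0.87, edgeR adjusted p = 0.0144 and 0.0224). Of the osteopontin receptor genes listed, Cd44, Itgav and Itga9 rose 3.99-, 2.22- and 1.93-fold (edgeR adjusted p = 0.0119, 0.0123 and 0.0119), while Spp1 fell. Itgb1, Itgb5, Itga4 and Itgb3 did not pass (edgeR adjusted p = 0.0671, 0.086, 0.406 and 0.4465). Itgb3 was on the lower side (log2 fold change -0.77). Cd44, Itgav and Itga9 were highest in SOHU replicate 1, as was the Müller glia and astrocyte list. Cd44 had 186, 181 and 116 CPM in SOHU and 27.1, 63.3 and 30.8 CPM in naive. The part of glia and other cells in these rises was not tested. The PACAP receptor gene Adcyap1r1 did not pass (log2 fold change -0.45, adjusted p = 0.237). Of 23 relatives and partners of the adhesion and transcription factor members, 6 rose and 2 fell (median -0.08). Jam3 and F11r, which encode the other junctional adhesion molecules measured, rose 2.04- and 2.23-fold (74.75 ± 14.9 CPM in SOHU and 36.7 ± 6.23 CPM in naive for Jam3, SD, n = 3 each). The cadherin gene Cdh2 rose 1.86-fold, with Cdh4 the cadherin gene that fell (-0.98). The part of other cells in these changes was not tested either.

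**Figure D4:**
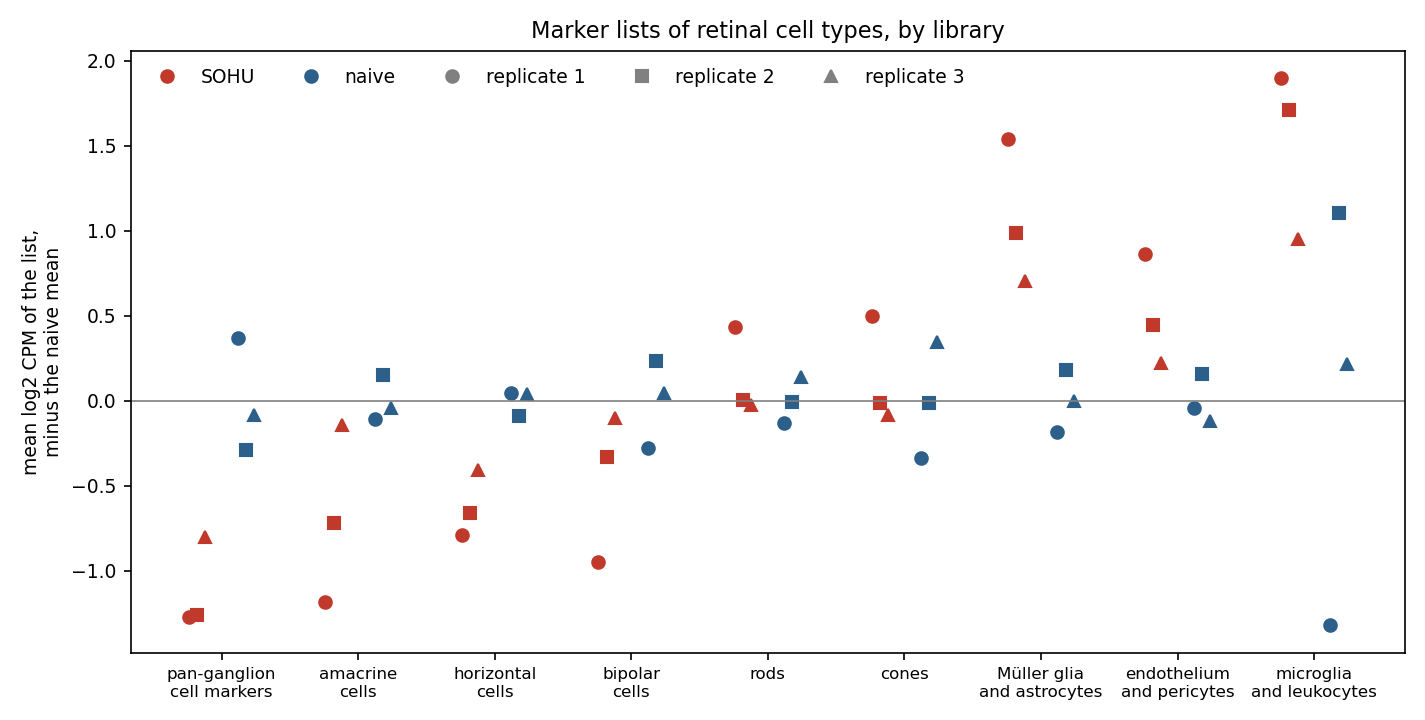
Mean log2 CPM of marker lists of retinal cell types in each SOHU (red) and naive (blue) library, as the difference from the naive mean of the list. Pan-ganglion cell, amacrine and horizontal lists lie lower in all SOHU libraries, glial and endothelial lists lie higher, and rod, cone, bipolar and leukocyte lists overlap.

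Markers of other retinal cells moved alongside. Of 14 Müller glia and astrocyte genes tested, 9 rose and 0 fell (median log2 fold change 1.15), those with the smallest p being Kcnj10 (1.30) and Sox9 (1.14). In the leukocyte list 5 of 13 rose (median 1.75), and in the endothelium and pericyte list 3 of 10 (0.66), namely Kdr, Flt1 and Pdgfrb. Of 15 amacrine genes, C1ql2, Gad2 and Tfap2b fell and Megf10 and Sox2, which Müller glia also express, rose. Of 6 horizontal cell genes Calb1 and Tpm3 fell, and among the bipolar genes Isl1 fell. Over 10 rod and 8 cone genes the medians were 0.09 and 0.04, and the smallest edgeR adjusted p were those of Pde6a among rod genes (log2 fold change 0.50, adjusted p = 0.0644) and Arr3 among cone genes (0.72, adjusted p = 0.0701). The part of these cells in the members' changes was not tested.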

How the data were processed

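The deposited values are whole read counts for every gene, in 1 table of all 6 libraries whose columns equal the 6 single files. The submitters' processing notes name featureCounts, HISAT2 and HISAT, Trim Galore, MultiQC and bcl2fastq 2.17, with the build mm10. Annotation release, strand setting and handling of multiply aligned reads were not stated. Reads shared with overlapping genes cannot be assigned with certainty: Opn4 and Spp1 share exon bases with Gm49012 and Gm42793, which had 58 and 2 reads in all. Of 55335 genes, 55154 got a symbol from GENCODE M21.

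Genes were filtered with filterByExpr, scaled by TMM and tested with edgeR 4.0.16 (quasi-likelihood, robust, R 4.3.3), Benjamini-Hochberg adjusted over 17687 genes at 0.05. The fit was also run on simulated data, where 16 of the 140 genes called were unchanged ones. There it called 4% of 1.5-fold changes, 70% of 2-fold, 80% of 3-fold and 94% of 4-fold changes. Changes are SOHU minus naive; log2 CPM has a prior count of 2. Alternatives were limma-voom 3.58.1, DESeq2 1.42.0, other filters and scalings, a replicate block and each library left out. Replicates of a group differed beyond counting noise (chi-square per degree of freedom 12.6 to 79.0). Members and lists were chosen with earlier results of these data known. Named were all members and, of each list, up to 4 genes by smallest p. Pou4f2, Eomes, Pcsk2, Adcyap1r1, Cdh4, Tfap2b, Chat, Slc18a3, Pecam1, Cdh5, Tie1, Cldn5 and Cd74 were added after their values were seen. Fes, Il1rapl2, Tpbg, Col25a1, Esam, Nmb, Itgb1, Itgb5, Itga4 and Itgb3 were added in the same way. Results for some genes of these lists are not reported here.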

Additional observations from a re-analysis of the deposited data

How the results depend on the processing

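On the TMM scale the 9 members lower in SOHU kept that direction under all 12 alternatives, and Jam2 ranged from -0.13 to 0.46 (log2) with a library left out. Members called lower numbered 6, 8 in DESeq2, 7 with a filter of 1 CPM in 3 libraries, and 0 to 6 with a library left out. Genes called numbered 2467 (1049 lower, 1418 higher), 3775 in DESeq2 (1751 lower), 1675 lower with no filter, and 0 to 3896 with a library left out (0 to 1845 lower, 0 to 2051 higher). At 0, without naive replicate 1 or 3, edgeR had 3919 and 4251 genes at an unadjusted p under 0.05, while the calls of DESeq2 were 1772 and 2279 and those of limma-voom 0 and 0. The cause was not tested. Relative to the pan-ganglion cell markers, leaving out a library took Opn4 from -0.16 to 0.495, Adcyap1 from -0.083 to 0.065, Spp1 from -0.34 to 0.12 and Cdh6 from -0.023 to 0.35, with no call. The labels do not say whether equal replicate numbers mark a shared source. Same-numbered libraries did not all deviate together (correlation of deviations 0.163, 0.251 and 0.004). The last was under the 0.1 asked for, so the libraries were not treated as pairs. Differently numbered libraries had -0.28 to 0.0946, below the values of replicates 1 and 2, and a shared source was not tested. With the replicate number as a block 2070 genes and 6 members were called, Opn4 in place of Cdh6 (adjusted p = 0.0639). The 31 to 125 reads of Tbx20 limit what could be seen for it.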

Other observations

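The leukocyte gene Cd74, singled out after its values were seen, was low in replicate 1 of each group, at 2.04 CPM in SOHU and 2.93 CPM in naive, against 71.7 to 171 CPM in the other SOHU libraries and 127 to 182 CPM in the other naive libraries. Among the 10 subtype markers none had its lowest naive value in replicate 1.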
